A study of Homo sapiens with 16 samples.

Results

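DSEL encodes one of the human enzymes that turn chondroitin sulfate into dermatan sulfate, and it is described here with 9 other genes that build these sugar chains: DSE, CHSY1, CHSY3, CHPF, CHPF2, CSGALNACT1, CSGALNACT2, CHST11 and XYLT1. The 10 genes were found by name in the authors' normalized table and followed by identifier into the count files, which list 58302 genes, 40888 of them with a count. Each name matched 1 identifier. In all, 9 of the 10 passed the filter on low counts and were among the 22553 genes tested, while CHSY3 did not pass. DSEL was picked because its level in control and DHT libraries had already been seen to differ between the lines. It was thus chosen by its measured level, and its values in those groups, and every difference that uses them, are a description with no test. The other 9 genes were picked for their place in the pathway, with earlier results of these data known.

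The libraries are polyA RNA sequencing of VCaP, a human prostate cancer cell line that responds to androgen. The line called Vc was kept for 4 months with ethanol and the line called Ver for 4 months with 1 µM enzalutamide, a drug that blocks androgen action. Each line was starved of steroid hormones and then treated for 24 h with control medium, 1 nM dihydrotestosterone (DHT, an androgen), 1 µM enzalutamide, or DHT and enzalutamide together at those doses. Each of the 8 groups has 2 libraries, 16 in all. Vc and Ver are 1 line each, and the labels do not say whether the 2 libraries of a group came from separate cultures, so p-values measure only the spread between libraries. The library names end in an L number that is 8 in every Vc library and 2 in every Ver library, and the labels do not say what it stands for. No comparison of the lines within 1 such number was possible, so line and L number cannot be told apart.

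Chondroitin sulfate is a chain of alternating glucuronic acid and N-acetylgalactosamine that is built in the Golgi on a short linker attached to serine residues of a core protein. Xylosyltransferases such as XYLT1 begin the linker, CSGALNACT1 and CSGALNACT2 add the residue that commits it to chondroitin, and complexes of CHSY and CHPF proteins extend the chain. The epimerases DSE and DSEL then turn glucuronic acid into iduronic acid, which makes dermatan sulfate, and sulfotransferases such as CHST11 add sulfate.

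The libraries held 8155244 to 13273523 counts in genes. FKBP5, TMPRSS2 and KLK3, textbook androgen-induced genes, had log2 rises with DHT of 4.79, 1.87 and 1.46 in Vc, and of 4.635, 2.11 and 1.195 in Ver. Levels are given as CPM, the count scaled to the size of the library. The summed level of 8 luminal and VCaP genes was 4233 to 4372 CPM in Vc control libraries and 9772 to 9951 with DHT, and 3936 to 4046 and 8666 to 8983 in Ver, with none at 0. KLK2 had by far the most counts of the 8, 693259 over all libraries, and KRT8, the next, had 117886. In untreated libraries, at an adjusted p under 0.05 in edgeR, KLK3 was higher in Ver than in Vc. TMPRSS2, ERG, HOXB13 and KRT8 were lower there, 1 higher and 4 lower of 8, against 9.13% and 9.73% of all genes. The summed level of 6 immune genes ran from 0.357 to 2.09 CPM. Reads in no gene were 50.1 to 50.6% of counted reads in Vc control libraries and 46.9 to 47.1% with DHT. They were 48.7 to 49.0% in Ver control libraries and 45.3 to 45.6% with DHT. The part of these shifts in the DHT results was not tested.

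The level of DSEL was highest in cells without androgen and lowest with DHT, and its range was wider in Ver than in Vc. DSEL lies on the minus strand of chromosome 18, from 67506582 to 67516980 on GRCh38, under the identifier ENSG00000171451. Its 2 Vc control libraries had 115 and 124 CPM, and its 2 Vc DHT libraries had 26.7 and 29.6 CPM. The 2 Ver control libraries had 210 and 204.5 CPM, and the 2 Ver DHT libraries had 16.4 and 19.9 CPM. Neither pair of groups overlapped, and the Ver libraries lay above the Vc libraries without androgen and below them with it. The group means were 4.27-fold apart in Vc (log2 difference -2.10, DHT minus control) and 11.4-fold apart in Ver (log2 difference -3.51). These are the values for which DSEL was picked.

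**Figure D1:**
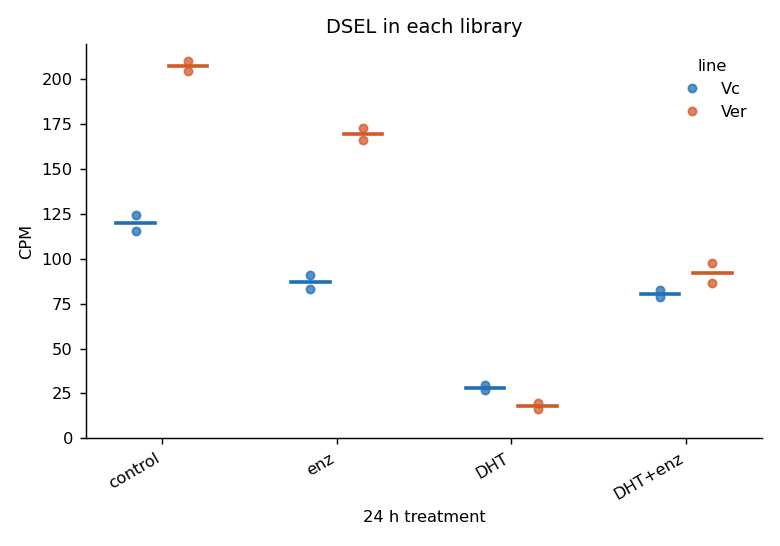
CPM of DSEL in each library by 24 h treatment, on a linear axis from 0, for Vc (blue) and Ver (orange). Each point is a library and each line the mean of 2. Ver lies above Vc in control and with enzalutamide, below it with DHT, and close to it with both.

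With enzalutamide alone the Vc libraries had 83.2 and 91.05 CPM and the Ver libraries 166 and 173 CPM. With DHT and enzalutamide together the Vc libraries had 82.75 and 78.6 CPM and the Ver libraries 97.8 and 86.7 CPM. The group means fell in the order Ver control, Ver with enzalutamide, Vc control, Ver with both, Vc with enzalutamide, Vc with both, Vc with DHT and Ver with DHT, from 207 to 18.2 CPM. Among neighbours in that order, Ver with both overlapped with Vc with enzalutamide, and the libraries of no other neighbouring pair overlapped. As a description, the difference of enzalutamide on top of DHT from DHT alone was 1.525 on the log2 scale in Vc and 2.345 in Ver, and that of enzalutamide alone from control was -0.46 and -0.29.

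The enzalutamide libraries had no part in picking DSEL, so the effect of DHT was tested there. The lines are the same, however, and the spread in the test was estimated from all 16 libraries, those that picked DSEL included. A difference between the lines there is thus not independent of the pick. As a description, the gap in DHT response without enzalutamide was -1.42 on the log2 scale (Ver minus Vc). In Ver, DSEL fell by 0.88 on the log2 scale (SE 0.069, 1.84-fold) when DHT was added under enzalutamide, with an adjusted p of 7.3e-24. This is edgeR's quasi-likelihood test with Benjamini-Hochberg adjustment over all genes tested, as for every adjusted p given here unless another tool is named, and a gene was called when it was under 0.05. In Vc the difference was -0.11 with an adjusted p of 0.26 (SE 0.070), and the groups did not overlap. The gap between the lines was itself -0.77 on the log2 scale (SE 0.098, adjusted p = 1.4e-09, Ver minus Vc). Over 13 alternative settings and left-out libraries, that adjusted p ran from 2.2e-11 to 2.7e-06.

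DSEL was also higher in Ver than in Vc when both were under enzalutamide, by 0.96 on the log2 scale (SE 0.068, 1.95-fold, adjusted p = 7.3e-27). With both compounds the lines differed by 0.19 (SE 0.071, adjusted p = 0.0394), and the groups did not overlap. That call was lost in 5 of 9 alternatives, whose adjusted p ran from 0.0134 to 0.51. It was lost without the low-count filter (0.0805), with DESeq2 (0.082), without replicate 1 (0.0659) or 2 (0.254) of Vc with both, and without replicate 1 of Ver with both (0.51).

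The summed level of 12 stromal and endothelial genes was, like that of DSEL, lower with DHT and higher in Ver than in Vc in control libraries. It was 24.95 to 26.85 CPM in Vc control libraries and 5.91 to 8.64 with DHT, and 63.4 to 68.4 in Ver control libraries and 7.13 to 8.40 with DHT. With enzalutamide it was 29.9 to 32.9 CPM in Vc and 88.2 to 92.3 in Ver, and with both 10.3 to 13.8 and 24.2 to 36.6. Most of this sum in the control libraries was LUM, the gene for the proteoglycan lumican, at a mean of 13.8 CPM in Vc and 53.4 in Ver control libraries. Without LUM, a sum chosen after its level was seen, the other 11 genes came to 10.9 to 13.3 CPM in Vc control libraries and 5.58 to 8.03 with DHT, and to 11.2 to 13.8 and 6.33 to 7.20 in Ver. With enzalutamide they came to 13.2 to 15.7 CPM in Vc and 11.3 to 14.4 in Ver, and with both to 6.87 to 9.15 and 6.95 to 12.8. So this sum, too, was lower with DHT than in control in both lines, while the control libraries of the lines overlapped.

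Of the 12 genes 6 were tested, and 3 fell with DHT in each line, LUM, FBLN1 and PDGFRB, while 0 rose, where 22.5% of all genes tested were called lower in Vc and 22.9% in Ver. FBLN1, the gene for the matrix protein fibulin-1, had a mean of 7.53 CPM in Vc control and 2.44 in Vc DHT libraries, and of 7.17 and 2.68 in Ver. Its log2 differences were -1.63 (adjusted p = 4.8e-07) and -1.42 (adjusted p = 1.1e-05). PDGFRB, a receptor gene of fibroblasts and pericytes, had 0.925 and 0.775 CPM in the control groups and was at 0 in both DHT groups (adjusted p = 0.00035 in Vc and 0.00096 in Ver). COL1A1, ACTA2 and VWF were not called, at 1.66, 1.32 and 0.281 CPM in Vc control libraries. With DHT under enzalutamide, 1 of the 6 was called higher in each line, VWF, and 2 lower, LUM and FBLN1. Of all genes, 16.4% were called higher and 14.4% lower there in Vc, and 14.7% and 12.8% in Ver. VWF had 150 counts over all libraries. CD14, the 1 immune gene tested, was called lower with DHT in both lines, from 1.58 to 0.317 CPM in Vc (adjusted p = 0.0104) and from 0.906 to 0.0907 in Ver (adjusted p = 0.00661). Its call was lost in Vc with DESeq2 (0.0545) and without replicate 1 (0.0656) or 2 (0.0601) of Vc with DHT, and in Ver without replicate 2 of Ver control (0.457). Of the other marker genes of fibroblasts, endothelium and blood cells, COL1A2, COL3A1, DCN, PDGFRA, PECAM1, CDH5, KDR, PTPRC and CD3E had at most 0.805 CPM in any library. Between 2 and 6 of the 12 stromal and endothelial genes were at 0 in a group. The part of these genes in the DSEL values was not tested. In bulk RNA, fewer cells with a transcript and less of it per cell cannot be told apart.

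Counting used no strand, so reads of a gene and of one on the opposite strand cannot be separated where their exons overlap. Reads in such shared bases were set aside as ambiguous and are missing from the counts of both genes. The count of an overlapping gene, 0 included, thus comes from outside the shared bases. It does not show whether that gene was transcribed within them. DSEL shares 3305 exon bases with the antisense gene AC110597.3, which had 0 counts in all libraries, and 204 with AC114689.3, which had 20. Its sister gene DSE shares 589 exon bases with TSPYL1, which had 19255 counts, and 623 with the pseudogene AL050331.1, which had 56. DSE also shares 766 exon bases on its own strand with Z84488.2, whose counts were not analysed here.

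DSE, the other epimerase gene, had 4 to 40 counts per library, and DSEL 184 to 2286. Levels of different genes are compared only as CPM per kilobase of exon. The lengths include bases shared with other genes, whose reads were set aside, so levels of such genes are understated. They are also the merged exons of all annotated transcripts, 19193 bases for DSE and 9531 for DSEL. The level of a gene whose transcripts use only part of them is understated too. By how much was not measured. On that scale DSE had 0.102 ± 0.032 in Vc control and 0.0954 ± 0.029 in Ver control libraries (SD, n = 2), beside 12.6 ± 0.67 and 21.7 ± 0.41 for DSEL. DSEL held 98.98 and 99.39% of the summed epimerase level per kilobase in the Vc control libraries and 96.32 and 95.91% with DHT. In Ver it held 99.48 and 99.65% in control libraries and 94.88 and 96.67% with DHT, the lowest share in any library. No change of DSE with DHT was called: its log2 differences were 0.21 for Vc (SE 0.42, adjusted p = 0.727) and -0.20 for Ver (SE 0.45, adjusted p = 0.766).

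Among the other members, DHT moved most of the chain-building genes up and XYLT1 down. Of 8 tested members besides DSEL, 5 rose and 1 fell in Vc, where 44.3% of all genes tested were called (21.8% higher and 22.5% lower). In Ver 5 rose and 2 fell, against 44.1% of all genes (21.2% higher and 22.9% lower). The members that rose were the same 5 in both lines: CHPF, CHPF2, CHSY1, CSGALNACT1 and CSGALNACT2. XYLT1 fell in both, and CHST11 was called lower in Ver. The median log2 difference of the 8 was 0.43 in Vc and 0.47 in Ver, beside -0.04 and -0.04 over all genes tested.

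**Figure D2:**
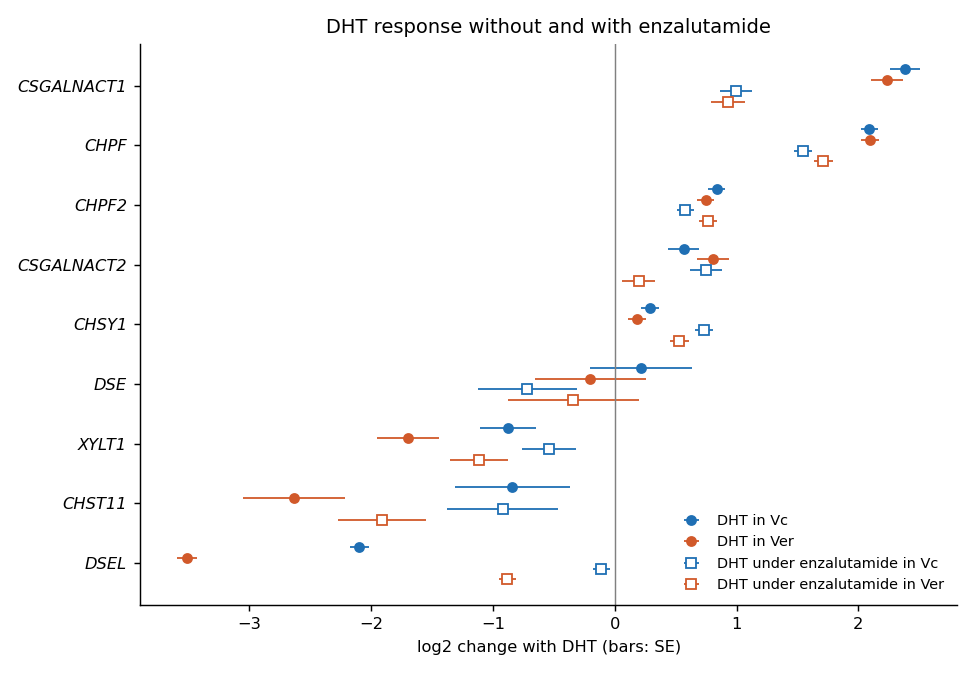
Log2 change with DHT of each tested member in Vc and Ver, without and under enzalutamide, with bars of 1 SE. CHPF and CSGALNACT1 lie above 2 in both lines without enzalutamide, and DSEL, a description there, has the lowest value, -3.51 in Ver.

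The largest rises were those of CHPF and CSGALNACT1. Each set below is shown because the genes moved in different directions while most of their promoters hold the same short motif, a GC box. RefSeq's table for GRCh38.p14 gave 13 windows of 250 bases before a start site for 9 of the 10 members, and none for CSGALNACT1. The sequences run 5′ to 3′ on the gene's strand, and capitals mark GGGCGG or, for the other strand, CCGCCC. For CHPF and DSEL, whose windows overlap annotated exons, 30 bases are shown, which hold 1 match for CHPF and 2 overlapping matches for DSEL.
CHPF, chr2:219543810-219543839, minus strand, higher with DHT: ccgagaccccaccccggGGGCGGggccctt
CHPF2, chr7:151232233-151232482, plus strand, higher with DHT: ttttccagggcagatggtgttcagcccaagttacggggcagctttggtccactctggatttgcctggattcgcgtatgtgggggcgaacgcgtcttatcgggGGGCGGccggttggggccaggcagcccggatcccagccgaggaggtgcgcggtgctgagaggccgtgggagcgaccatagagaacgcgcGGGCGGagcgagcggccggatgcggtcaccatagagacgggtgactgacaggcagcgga
CHSY1, chr15:101252049-101252298, minus strand, higher with DHT: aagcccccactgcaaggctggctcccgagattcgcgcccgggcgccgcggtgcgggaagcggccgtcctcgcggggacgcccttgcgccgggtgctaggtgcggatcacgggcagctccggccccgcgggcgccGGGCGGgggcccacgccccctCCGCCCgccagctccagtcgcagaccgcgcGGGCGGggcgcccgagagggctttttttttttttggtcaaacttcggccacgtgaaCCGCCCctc
XYLT1, chr16:17470961-17471210, minus strand, lower with DHT: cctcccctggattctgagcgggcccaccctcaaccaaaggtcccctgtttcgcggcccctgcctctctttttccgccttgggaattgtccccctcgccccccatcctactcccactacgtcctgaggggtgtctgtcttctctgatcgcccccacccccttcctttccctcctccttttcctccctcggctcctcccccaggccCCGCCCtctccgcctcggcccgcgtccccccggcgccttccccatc
DSEL, chr18:67516772-67516801, minus strand, described as lower with DHT: cccgtcctgcctCCGCCCCGCCCccgcttg

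The whole CHPF2 window holds 2 such boxes, that of CHSY1 4 and that of XYLT1 1. The whole DSEL window holds 7 matches, overlapping ones included, and the CHPF windows hold 3 and 0. GGGCGG or CCGCCC was in 11 of the 13 windows of these genes, and in 42.6% of all 35116 windows of the same length. AGAACA, letters that occur in steroid receptor elements, or TGTTCT on the other strand, was in 0 of the 13 and in 12.4% of all windows. A match describes these letters in this window only.

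CHPF encodes a chondroitin polymerizing factor that works with a synthase to extend the chain. Its Vc libraries had 45.4 and 45.4 CPM in control and 183.9 and 203.1 with DHT. In Ver they had 40.6 and 47.05 CPM in control and 186.1 and 189.6 with DHT. The DHT libraries of both lines lay far above the control libraries. The libraries of the 2 lines overlapped in control and with DHT, but not with enzalutamide or with both compounds. CHPF rose by 2.09 on the log2 scale in Vc (SE 0.072, 4.26-fold, adjusted p = 2.2e-60) and by 2.10 in Ver (SE 0.073, 4.28-fold, adjusted p = 2.5e-59). It shares 125 exon bases with TMEM198 on the opposite strand, which had 2748 counts to the 17472 of CHPF.

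Enzalutamide left part of this rise. Under enzalutamide alone CHPF had 46.8 and 40.5 CPM in Vc and 37.8 and 34.6 in Ver, and with DHT added 123.8 and 131.2 in Vc and 122.6 and 114.2 in Ver. These values with both compounds lay between those of control and of DHT in each line. With enzalutamide present, DHT raised CHPF by 1.54 in Vc (SE 0.074, adjusted p = 1.5e-43) and by 1.71 in Ver (SE 0.079, adjusted p = 6.7e-45). Set against DHT alone, enzalutamide on top of it lowered CHPF by a log2 difference of -0.60 (adjusted p = 1.5e-14) in Vc and -0.67 (adjusted p = 1.4e-16) in Ver. The comparison of enzalutamide on top of DHT shares libraries with both DHT comparisons of its line. The DHT effects without and under enzalutamide share none, but they were not tested against each other and are given side by side.

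CHPF2 encodes a second factor of this kind. It had 73.2 and 67.3 CPM in Vc control libraries and 129.2 and 122 with DHT, and 70.9 and 69.8 in Ver control libraries and 124.8 and 111.4 with DHT. Control and DHT libraries did not overlap in either line. The rise was 0.84 in Vc (SE 0.070, 1.79-fold, adjusted p = 2.2e-22) and 0.75 in Ver (SE 0.071, 1.68-fold, adjusted p = 1.6e-18). Under enzalutamide it was 0.58 (adjusted p = 1.8e-12) in Vc and 0.77 (adjusted p = 8.3e-18) in Ver.

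CHSY1 encodes a chondroitin synthase, and its rise with DHT was larger under enzalutamide than without it in both lines by value, a difference that was not tested. It had 67.1 and 68.3 CPM in Vc control libraries, 82.7 and 82.7 with DHT, 58.6 and 53.6 with enzalutamide and 92.7 and 94.0 with both. In Ver it had 80.9 and 75.4 CPM in control, 89.0 and 88.5 with DHT, 78.7 and 65.8 with enzalutamide and 102.2 and 105.8 with both. In each line the libraries with both compounds were the highest. CHSY1 rose with DHT by 0.29 in Vc (SE 0.074, adjusted p = 0.00053) and by 0.18 in Ver (SE 0.074, adjusted p = 0.0329). The call in Ver was lost in 6 of 9 alternatives, with adjusted p from 0.0216 to 0.262: without the low-count filter (0.0601), in the 2 groups alone (0.0502), with DESeq2 (0.0784), without replicate 2 of Ver control (0.262) and without replicate 1 (0.0997) or 2 (0.0841) of Ver with DHT. With enzalutamide present, DHT raised it by 0.73 in Vc (SE 0.075, adjusted p = 3.2e-16) and by 0.53 in Ver (SE 0.075, adjusted p = 1e-09).

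CHSY3, the paralogous synthase gene, had 4 counts over all libraries, in 3 of the 16: 1 in each Ver control library and 2 in a Ver DHT library. A count of 0 allows up to 0.226 to 0.368 CPM (3 counts, depending on the library), for counting error only. This bound uses the plain counts in genes as library size, whereas the other CPM values use adjusted library sizes. No difference between groups was detectable at this depth.

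**Figure D3:**
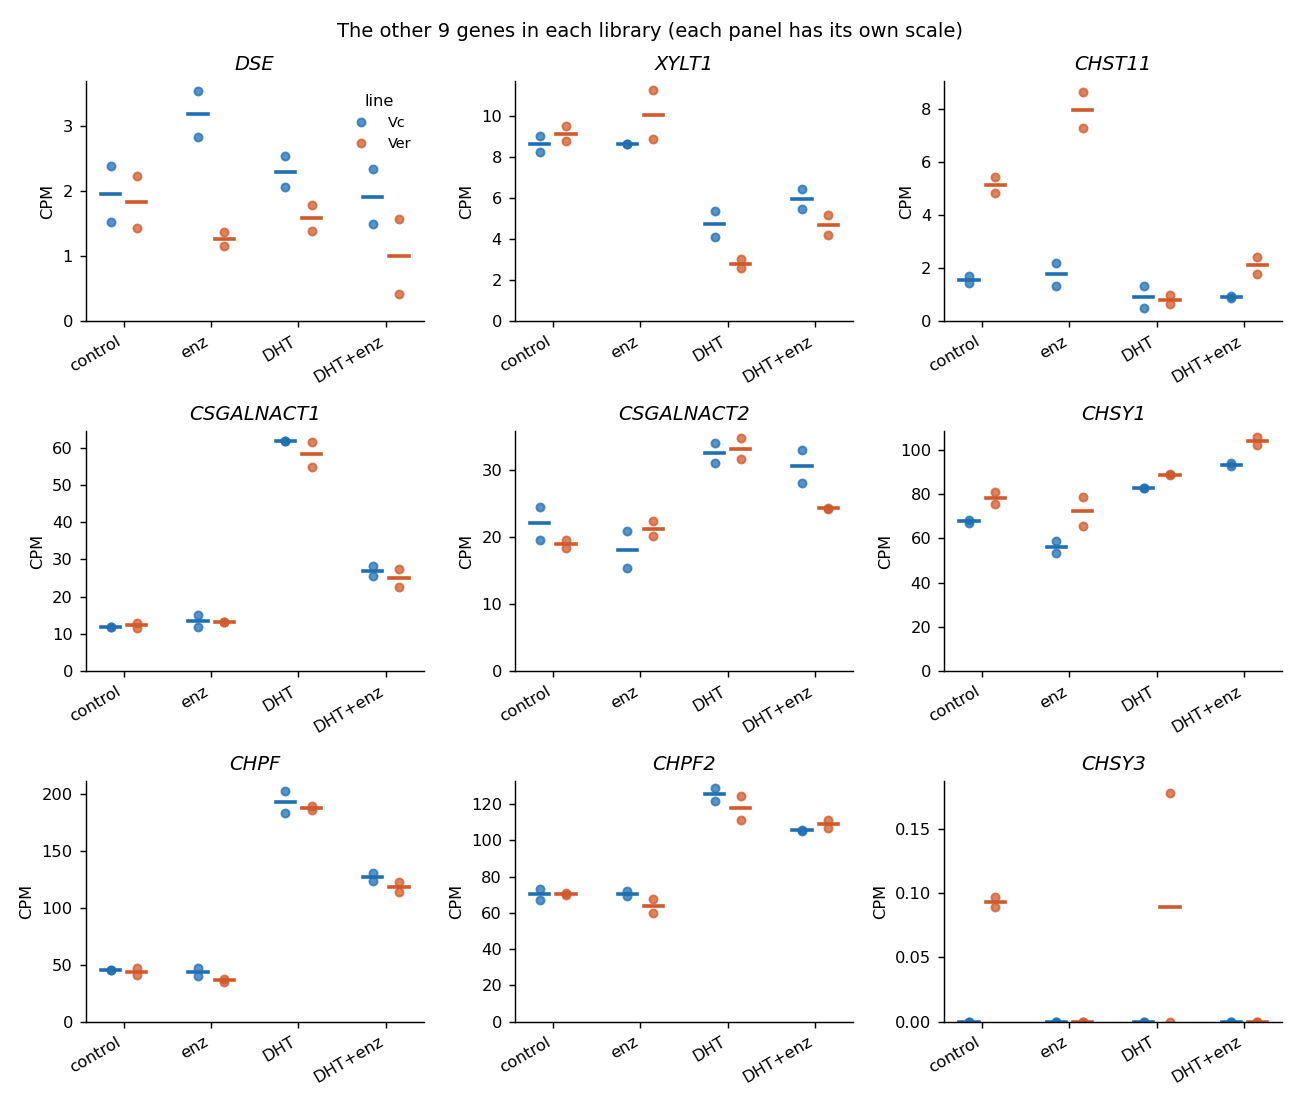
CPM of the 9 members other than DSEL in each library by 24 h treatment, each panel on its own linear axis from 0, for Vc (blue) and Ver (orange); points are libraries and lines means of 2. CHPF, CHPF2, CSGALNACT1 and CSGALNACT2 are higher with DHT than in control in both lines, and CHST11 is higher in Ver than in Vc without androgen.

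CSGALNACT1 encodes a transferase that starts chondroitin on the linker. It had 11.8 and 11.9 CPM in Vc control libraries and 61.7 and 61.9 with DHT, and 13.1 and 11.6 in Ver control libraries and 54.75 and 61.55 with DHT. The rise was 2.38 in Vc (SE 0.13, 5.21-fold, adjusted p = 2.2e-39) and 2.235 in Ver (SE 0.13, 4.71-fold, adjusted p = 7.6e-36). With both compounds it had 25.5 and 28.3 CPM in Vc and 22.7 and 27.6 in Ver, between control and DHT in each line. Enzalutamide on top of DHT changed it by -1.20 (adjusted p = 1.5e-17) in Vc and -1.21 (adjusted p = 4.5e-17) in Ver. The rise with DHT under enzalutamide was 0.99 (adjusted p = 6.8e-11) and 0.93 (adjusted p = 8.2e-09).

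CSGALNACT2 encodes the second enzyme for this step. It had 19.6 and 24.5 CPM in Vc control libraries and 34.0 and 31.0 with DHT, and 19.6 and 18.3 in Ver control libraries and 34.8 and 31.6 with DHT. It rose by 0.57 in Vc (SE 0.13, 1.48-fold, adjusted p = 5.7e-05) and by 0.81 in Ver (SE 0.13, 1.75-fold, adjusted p = 3.4e-08). Under enzalutamide the DHT effect was 0.75 (adjusted p = 4.4e-07) in Vc and 0.20 (adjusted p = 0.319) in Ver. The difference between these 2 effects was -0.55 (SE 0.19, adjusted p = 0.0972) and was not called. It was called in 1 of 13 alternatives, without replicate 1 of Vc with enzalutamide (adjusted p = 0.0241, over a range of 0.0241 to 0.571).

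XYLT1 encodes a xylosyltransferase that attaches the first sugar of the linker to the core protein, a step shared with heparan sulfate. It had 9.01 and 8.24 CPM in Vc control libraries and 4.11 and 5.39 with DHT, and 9.50 and 8.77 in Ver control libraries and 3.03 and 2.58 with DHT. The DHT libraries lay below the control libraries in both lines. XYLT1 fell, with a log2 difference of -0.87 in Vc (SE 0.23, 1.83-fold, adjusted p = 0.0008) and -1.695 in Ver (SE 0.25, 3.24-fold, adjusted p = 3e-09). The call in Vc was lost without replicate 1 of Vc with DHT (adjusted p = 0.0578, over a range of 0.00078 to 0.0578 in 9 alternatives). Under enzalutamide the DHT effect was -0.54 (adjusted p = 0.0524) in Vc and -1.11 (adjusted p = 6e-05) in Ver. The Vc effect was called with DESeq2's type of size factors (adjusted p = 0.0498) and in the compared groups alone (0.0405), and in no other of 9 alternatives. Its groups did not overlap.

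CHST11 encodes a sulfotransferase that adds sulfate to position 4 of N-acetylgalactosamine, and it had 6 to 80 counts per library. Its Vc libraries had 1.69 and 1.44 CPM in control and 0.493 and 1.32 with DHT. Its Ver libraries had 5.43 and 4.83 CPM in control, 0.981 and 0.646 with DHT, 8.63 and 7.26 with enzalutamide and 1.78 and 2.42 with both. The Ver libraries without androgen were the 4 highest of the 16. CHST11 fell in Ver, with a log2 difference of -2.635 with DHT (SE 0.42, 6.21-fold, adjusted p = 2.1e-08) and -1.91 with DHT under enzalutamide (SE 0.36, adjusted p = 3.9e-06). In Vc the values were -0.84 (SE 0.47, adjusted p = 0.146) and -0.92 (SE 0.46, adjusted p = 0.121). Without replicate 2 of Vc with DHT the first was -1.65 (adjusted p = 0.0345), over a range of 0.0345 to 0.783 in 9 alternatives.

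The difference between the lines in the DHT response was tested for the 8 members besides DSEL, and that of DSEL was not tested. edgeR called 0 of the 8, where 2.32% of all genes were called (0.891% higher and 1.43% lower). 2 of the 8, XYLT1 and CHST11, had an unadjusted p under 0.05, and DESeq2 called 0. The log2 differences, Ver minus Vc, were -0.82 for XYLT1 (SE 0.35, adjusted p = 0.271) and -1.79 for CHST11 (SE 0.66, adjusted p = 0.161). Those of the 5 genes that rose lay between -0.15, for CSGALNACT1, and 0.24, for CSGALNACT2. Under enzalutamide, where DSEL could be tested as well, 1 of 9 members was called, DSEL itself, as lower, against 2.54% of all genes (1.13% higher and 1.41% lower).

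Under enzalutamide, DHT raised 5 of 9 members and lowered 0 in Vc, against 30.9% of all genes called (16.4% higher and 14.4% lower). In Ver it raised 4 and lowered 3, against 27.5% (14.7% higher and 12.8% lower). The 3 that fell in Ver were DSEL, XYLT1 and CHST11. The 4 that rose were CHPF, CHPF2, CHSY1 and CSGALNACT1.

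Of the 8 tested members besides DSEL, none was called with enzalutamide alone, and DSEL was not tested there. edgeR called 0 of the 8 in Vc, where 0.537% of all genes were called (0.155% higher and 0.381% lower), and 0 of the 8 in Ver, where 1.13% were (0.470% higher and 0.661% lower). In each line 2 had an unadjusted p under 0.05, and DESeq2 called 0. These were CHSY1 (-0.27, adjusted p = 0.089) and CSGALNACT2 (-0.27, adjusted p = 0.562) in Vc, and CHPF (-0.28, adjusted p = 0.0908) and CHST11 (0.63, adjusted p = 0.536) in Ver. Without replicate 1 of Ver control, CHPF was called in Ver (-0.38, adjusted p = 0.0392).

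Enzalutamide on top of DHT lowered 3 of 8 members in Vc, CHPF, CSGALNACT1 and CHPF2, and raised 0, against 22.4% of all genes called (11.5% higher and 11.0% lower). CHPF2 changed by -0.25 (adjusted p = 0.00202), a call lost without replicate 1 of Vc with DHT (adjusted p = 0.0856, over a range of 0.00063 to 0.0856). In Ver it lowered CHPF, CSGALNACT1 and CSGALNACT2 and raised CHSY1, CHST11 and XYLT1, 3 each way of 8, against 26.9% of all genes (13.7% higher and 13.2% lower). CSGALNACT2 changed by -0.45 (adjusted p = 0.00333), CHSY1 by 0.23 (adjusted p = 0.0101), CHST11 by 1.35 (adjusted p = 0.0217) and XYLT1 by 0.73 (adjusted p = 0.0407). DESeq2 called 3 of the 8. The CSGALNACT2 call was lost without replicate 1 of Ver with DHT (adjusted p = 0.066). Those of CHSY1 and CHST11 were lost without replicate 2 of either group and with DESeq2 (0.0543 to 0.186), and that of XYLT1 in 7 of 9 alternatives (up to 0.271), among them each left-out library.

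Between the untreated lines, 2 of 8 members were higher in Ver and 0 lower, against 18.9% of all genes called (9.13% higher and 9.73% lower). CHST11 was higher by 1.70 (SE 0.37, 3.24-fold, adjusted p = 0.00013), and its groups did not overlap. CHSY1 was higher by 0.21 (adjusted p = 0.0372), a call lost in 6 of 9 alternatives with adjusted p up to 0.3, among them without replicate 1 (0.189) or 2 (0.105) of Vc control and without replicate 1 of Ver control (0.3). CHPF and CHPF2 differed by -0.05 (SE 0.081) and 0.00021 (SE 0.073).

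With DHT, 1 of 8 members was called between the lines, against 17.3% of all genes (7.90% higher and 9.37% lower). XYLT1 was lower in Ver by a log2 difference of -0.74 (adjusted p = 0.0477), a call lost in 7 of 9 alternatives with adjusted p up to 0.362. Among these were the fits without replicate 2 of Vc with DHT (0.362) and without replicate 1 (0.1) or 2 (0.246) of Ver with DHT. CHST11, higher in Ver in control, had a difference of -0.10 with DHT (adjusted p = 0.943).

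With enzalutamide, 3 of 9 members were higher in Ver, DSEL, CHST11 and CHSY1, and 2 were lower, CHPF and DSE, against 16.6% of all genes called (7.88% higher and 8.69% lower). CHST11 was higher by 2.165 (SE 0.36, 4.48-fold, adjusted p = 3.3e-07) and CHSY1 by 0.36 (adjusted p = 0.00017). CHPF differed by -0.28 (adjusted p = 0.0133) and DSE by -1.32 (SE 0.44, adjusted p = 0.025). The CHSY1 call was lost without replicate 1 of Ver with enzalutamide (0.101), and that of CHPF without replicate 1 of Vc (0.405) or replicate 2 of Ver (0.253) with enzalutamide. That of DSE was lost in 4 of 9 alternatives: with DESeq2 (0.105), without replicate 2 of Vc (0.185) and without replicate 1 (0.166) or 2 (0.101) of Ver with enzalutamide. With both compounds 1 of 9 was called, DSEL, against 20.3% of all genes (9.28% higher and 11.0% lower). CSGALNACT2 (-0.33, adjusted p = 0.0512) and CHST11 (1.175, adjusted p = 0.0534) missed the threshold, and CSGALNACT2 passed it without replicate 2 of Vc with both (0.0318).

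Per kilobase of exon, the order of the members changed with DHT. In Vc control libraries CHPF2 had the highest mean, 16.7 ± 1.0 CPM per kilobase (SD, n = 2), followed by CHPF with 13.5 ± 0.012, DSEL with 12.6 ± 0.67 and CHSY1 with 12.2 ± 0.16, and the last of these lay within the spread of DSEL. The 9531 exon bases of DSEL include 3305 and 204 shared with other genes, whose reads were set aside. Its place in the Vc control order could thus be higher, and levels over unshared bases alone were not computed. In Vc with DHT, CHPF had 57.7 ± 4.0, CHPF2 29.9 ± 1.2 and CHSY1 14.9 ± 0.0039. CSGALNACT1, with 9.39 ± 0.024, then lay above CSGALNACT2, with 8.71 ± 0.57, whereas in control they had 1.80 ± 0.012 and 5.90 ± 0.93. In Ver control libraries DSEL had the highest mean of the 10, 21.7 ± 0.41, and with DHT it had 1.91 ± 0.26, below CHPF, CHPF2, CHSY1 and both CSGALNACT genes. XYLT1, CHST11 and DSE stayed under 1 CPM per kilobase in all 4 of these groups.

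**Figure D4:**
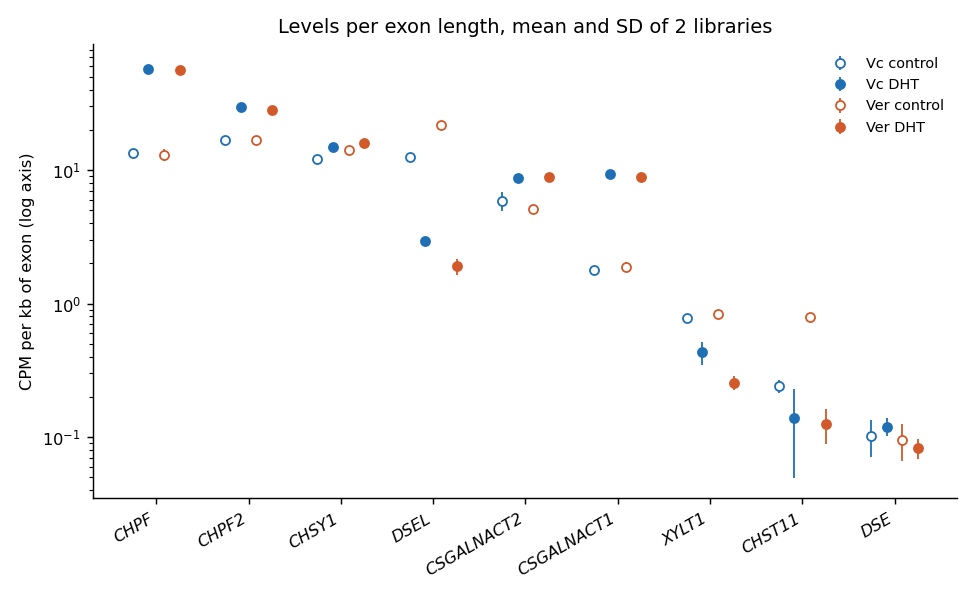
Mean CPM per kilobase of exon of the 9 tested members in the control (open) and DHT (filled) groups of Vc (blue) and Ver (orange), on a log axis, with bars of 1 SD of 2 libraries. CHPF is at the top with DHT in both lines, and DSEL drops from the highest mean in Ver control to 1.91 in Ver with DHT.

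The wider pathway did not move one way. Each count of genes below stands beside 44.3% of all genes called with DHT in Vc (21.8% higher and 22.5% lower) and 44.1% in Ver (21.2% higher and 22.9% lower). Of 6 linker genes tested, 1 rose and 2 fell with DHT in Vc, and 1 rose and 3 fell in Ver, 3 and 4 called of 6. B3GAT3, which adds the last linker sugar, rose by 1.06 and 0.83 on the log2 scale. XYLT2, the other xylosyltransferase gene, fell, with differences of -0.77 (adjusted p = 7.5e-07) and -0.94 (adjusted p = 2.1e-09). FAM20B, a xylose kinase, changed by -0.22 and -0.18 (adjusted p = 0.00901 and 0.0371), calls lost in 3 and 8 of 9 alternatives (up to 0.244 and 0.162), and PXYLP1, a xylose phosphatase, was the other gene called lower in Ver (-0.43, adjusted p = 0.00979). That call was lost without replicate 2 of Ver control (0.0513) or of Ver with DHT (0.079) and with DESeq2 (0.1).

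Of the 6 sulfotransferases tested besides CHST11, 1 rose and 1 fell in Vc, and 0 rose and 1 fell in Ver, against 44.3 and 44.1% of all genes called. CHST3, which adds sulfate to position 6, had 49.2 and 54.0 CPM in Vc control libraries and 78.2 and 86.0 with DHT, a rise of 0.67 (adjusted p = 9e-11). In Ver, where its groups overlapped, the difference was 0.18 (adjusted p = 0.125). Without replicate 2 of Ver control it was called (0.37, adjusted p = 0.00631), as it was without replicate 2 of Ver with DHT (0.30, adjusted p = 0.0215). The difference between the lines was called (adjusted p = 0.0185), but not without replicate 2 of Ver control (0.433) and in 4 further alternatives. CHST12 changed by -0.40 in Vc (adjusted p = 0.0124, lost without replicate 1 of Vc control, 0.0811, without replicate 1 of Vc with DHT, 0.0817, and with DESeq2, 0.0558) and by -0.95 in Ver (adjusted p = 1.5e-09). CHST14, the sulfotransferase that acts on dermatan sulfate, had log2 differences of 0.09 and 0.03 (adjusted p = 0.723 and 0.912).

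Of 13 genes that supply sugar nucleotides and sulfate, 9 rose and 4 fell with DHT in Vc, and 5 rose and 3 fell in Ver, against 44.3 and 44.1% of all genes called. SLC26A2, a sulfate transporter, rose by 2.66 in Vc (6.31-fold, adjusted p = 1.1e-72) and by 2.14 in Ver (4.40-fold, adjusted p = 1.2e-62). UAP1, which makes UDP-N-acetylhexosamines, rose by 1.74 and 1.73 (3.34-fold and 3.31-fold). UGDH, UGP2 and IMPAD1 also rose in both lines. PAPSS2, which makes the sulfate donor, fell in both, with differences of -1.87 and -1.12, as did UXS1, which makes UDP-xylose, with -0.57 and -0.91. SLC35D2 and PAPSS1 were the other 2 called lower in Vc, and SLC35D1 was called higher in Vc and lower in Ver. The Vc calls of SLC35D2 and SLC35D1 were lost without replicate 2 of Vc control (0.11 and 0.105), that of SLC35D1 also without replicate 1 of Vc with DHT (0.0859), and its call in Ver in 4 of 9 alternatives (up to 0.232). In Ver, SLC35D2 was called lower without replicate 2 of Ver control (0.0491) or replicate 1 of Ver with DHT (0.00466), and PAPSS1 without replicate 2 of Ver with DHT (0.00714).

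Heparan sulfate, the other chain built on the same linker, had 2 of 16 tested synthesis genes higher and 7 lower in Vc, and 2 higher and 6 lower in Ver, against 44.3 and 44.1% of all genes called. The sulfotransferase genes HS6ST1, with 1.62 and 1.08, and HS3ST4, with 1.93 and 2.12, rose. Their relatives HS6ST2, with -2.62 and -2.43, and HS3ST3B1, with -3.04 and -2.88, fell. The core proteins had 11 of 22 genes tested, of which 2 rose and 3 fell in Vc and 2 rose and 7 fell in Ver, beside the same 44.3 and 44.1%. SPOCK1, the gene for testican-1, had 132 and 133 CPM in Vc control libraries and 493 and 475 with DHT, a rise of 1.87 (adjusted p = 1.4e-68), and it rose by 2.13 in Ver. APLP2 rose as well. DHT under enzalutamide raised TMEFF2 in both lines and SDC1 in Ver, while CSPG5 fell in both. Without enzalutamide TMEFF2, with -1.23 and -1.935, CSPG5 and SDC1 were called lower in both lines. The Ver call of SDC1 was lost without replicate 2 of Ver control (-0.07, adjusted p = 0.519) or of Ver with DHT (-0.16, adjusted p = 0.091). Without replicate 2 of Ver with DHT, 4 in place of 7 were called lower in Ver, and without replicate 1 of Vc control 5 in place of 3 in Vc.

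Among genes of chain breakdown, GUSB, the gene for beta-glucuronidase, was called lower in both lines, with log2 differences of -0.45 and -0.39 (adjusted p = 5e-06 and 7.9e-05). IDUA, which removes iduronic acid, had -0.36 and -0.92 (adjusted p = 0.00528 and 1.3e-11), and SUMF1, which activates sulfatases, had -0.43 and -0.71 (adjusted p = 0.00151 and 1.8e-07). The Vc call of IDUA was lost without replicate 2 of Vc control (0.143) or of Vc with DHT (0.102), and that of SUMF1 without replicate 1 of Vc with DHT (0.081).

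The 5 genes whose level was most like that of DSEL were NIN (Pearson r of log2(CPM + 2) 0.99), MIR2052HG (0.97), RETREG1 (0.97), NAALADL2 (0.97) and MIR4697HG (0.97), over the 16 libraries, out of 12428 genes whose mean level reached 5 CPM. The points share libraries and groups, and r is given as a description. NIN had group means of 101.1 and 52.2 CPM in Vc control and DHT libraries and 115.9 and 46.2 in Ver. MIR2052HG had 18.1 and 3.30 in Vc and 32.1 and 2.99 in Ver. Among the members, r with DSEL was 0.86 for XYLT1, -0.30 for CHSY1, -0.78 for CSGALNACT2, -0.81 for CHPF2, -0.85 for CHPF and -0.92 for CSGALNACT1.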

How the data were processed

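The authors deposited, for each of the 16 libraries, a file of read counts per gene, and a table of normalized values for the whole series. The deposited signal in that table equals the count divided by a size factor (largest relative deviation 5.3e-10) and served for gene names alone. Reads were handled with HTSeq 0.11.1, SAMtools, HISAT2, Trimmomatic 0.36-5 and FastQC 0.11.7 on GRCh38, per the submitters' processing notes. The file names give unstranded counting in union mode. Summary lines were set aside: reads in no gene were 45.0 to 50.6% and ambiguous reads 7.09 to 8.55% of counted reads. Gene positions and exon lengths came from GENCODE release 29.

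The count test was edgeR's, version 4.0.16, run under R 4.3.3 (filterByExpr by group, TMM scaling, robust quasi-likelihood fit over all 16 libraries and 8 groups, common biological coefficient of variation 6.01%), two-sided, in 14 comparisons, adjusted by Benjamini-Hochberg over 22553 genes. The script was tested on simulated data. CPM uses TMM-adjusted library sizes. Each SE is the size of the log2 change over the square root of F, or that from Poisson counting where larger. DSEL was tested only in comparisons without its control and DHT groups, though those libraries entered the fit of the spread. The members and lists were chosen with earlier results of these data known. All members are named. Of each other list, the rule names the 3 members with the smallest adjusted p for DHT in Vc of those averaging 1 CPM or more, and those needed to account for a count of 5 or fewer. CHST14 was named after its values were seen. Some list members and the counts that need them are not reported here. Alternatives were DESeq2 1.42.0, its type of size factors, no low-count filter, only the groups compared, a replicate block, and leaving out each library. For the wider lists these were added after the data were seen. The replicate numbers are not tied to shared cultures in the labels, and deviations of same-numbered libraries correlated between -0.0487 and 0.0469.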

Additional observations from a re-analysis of the deposited data

Results flagged for a closer look

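The effect of DHT on DSEL under enzalutamide differed between the lines: the log2 difference, Ver minus Vc, was -0.77 (edgeR, adjusted p = 1.4e-09), with a fall of 0.88 in Ver and a difference of -0.11 in Vc. It is flagged because the difference between 2 responses was itself tested and called. DSEL was picked for a difference between these same lines in control and DHT libraries, so the call is not independent of the pick.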

How the results depend on the processing

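No result changed sign past the threshold under any alternative. The numbers of members called for DHT, without or under enzalutamide, stayed within 1.5 times the value given. For enzalutamide on top of DHT in Ver, 6 became 3 with DESeq2 and 3 to 5 with 1 library left out. For Ver against Vc, 2 untreated became 1 without the filter, in the compared groups alone or with DESeq2 (1 to 2 with a library left out). With DHT, 1 became 0 with DESeq2, its size factors, no filter or the compared groups alone (0 to 1). With enzalutamide, 5 became 3 with DESeq2 (3 to 4). With both, 1 became 0 with no filter or DESeq2 and 2 in the compared groups alone (0 to 1). The difference in DHT response under enzalutamide had 1 to 2, and enzalutamide alone in Ver 0 to 1, with a library left out. The replicate block raised the count for Ver against Vc with both to 2, adding CSGALNACT2 (adjusted p = 0.0497), and changed no other count of members by over 1.5 times; the replicate numbers pair nothing by the labels. Over all genes, the difference in DHT response had 523 calls, 344 with DESeq2 and 300 to 529 with a library left out. Under enzalutamide that difference had 573, and 280 to 478. Enzalutamide alone had 121 calls in Vc, and 47 to 62, and 255 in Ver, and 112 to 174. Ver against Vc untreated had 4252, and at least 2828. Counts of 4 to 80 per library limit DSE and CHST11.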
